A study of Mus musculus with 16 samples.

Results

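The metallothioneins and zinc transporters described here are 9 genes chosen by name for their roles in cellular zinc handling, out of 55359 genes counted. They are the metallothioneins Mt1 and Mt2, the zinc-sensing transcription factor Mtf1, the exporters Slc30a1, Slc30a4 and Slc30a7, and the importers Slc39a1, Slc39a8 and Slc39a14. Polyadenylated RNA was sequenced in 16 libraries of MPI-2 cells, a self-renewing wild-type mouse line of alveolar-like macrophages that was grown in GM-CSF with penicillin and streptomycin. The 4 groups of 4 biological replicates were cells exposed to Mycobacterium abscessus and taken at day 5, uninfected cells at day 5, cells exposed to Mycobacterium abscessus and taken at day 1, and uninfected cells at day 1. The strain, the dose and the share of cells infected are not given in the sources used here. All libraries came from this single line, over a range of passages, so the p-values measure the spread between its cultures.

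Metallothioneins are small cysteine-rich proteins that bind zinc and copper in the cytosol. When free zinc is high, the transcription factor MTF1 binds metal response elements in the promoters of the metallothionein genes and of Slc30a1, the exporter of the plasma membrane. Proteins of the SLC30 family move zinc out of the cytosol, across the plasma membrane or into organelles, and those of the SLC39 family move it into the cytosol. Macrophages are known both to withhold zinc from microbes and to load zinc into the compartments that hold them. Mt1 and Mt2 also have, as background, glucocorticoid, antioxidant and STAT3 inputs.

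The promoters of Mt1, Mt2 and Slc30a1 are shown because they are the textbook targets of MTF1, and the 3 genes differed in how they moved here. RefSeq promoter windows of 250 bases before to 50 after the gene's start, on GRCm38.p6, matched 8 of the 9 genes by symbol. Slc39a14 had no such window, so its promoter was not searched. The Mt1 window is chr8:94178839-94179138, the Mt2 window chr8:94172368-94172667 and the Slc30a1 window chr1:191906531-191906830, each on the plus strand and printed 5′ to 3′. The counts rest on a later assembly, GRCm39, so these positions are those of RefSeq's table only. Capitals mark each match to the core of the metal response element, searched on both strands as TGCACNC or TGCGCNC.
Mt1: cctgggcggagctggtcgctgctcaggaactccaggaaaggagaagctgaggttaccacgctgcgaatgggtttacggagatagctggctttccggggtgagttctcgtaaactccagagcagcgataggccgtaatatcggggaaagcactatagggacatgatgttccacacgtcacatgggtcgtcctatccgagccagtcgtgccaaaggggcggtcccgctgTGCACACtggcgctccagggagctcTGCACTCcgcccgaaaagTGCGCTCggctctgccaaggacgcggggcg
Mt2: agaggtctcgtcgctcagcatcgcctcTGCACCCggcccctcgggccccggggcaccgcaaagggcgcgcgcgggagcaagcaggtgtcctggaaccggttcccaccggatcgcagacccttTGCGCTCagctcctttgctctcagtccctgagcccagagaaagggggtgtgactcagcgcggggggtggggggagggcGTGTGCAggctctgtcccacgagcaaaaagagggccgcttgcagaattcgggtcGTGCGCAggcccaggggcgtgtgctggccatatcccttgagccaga
Slc30a1: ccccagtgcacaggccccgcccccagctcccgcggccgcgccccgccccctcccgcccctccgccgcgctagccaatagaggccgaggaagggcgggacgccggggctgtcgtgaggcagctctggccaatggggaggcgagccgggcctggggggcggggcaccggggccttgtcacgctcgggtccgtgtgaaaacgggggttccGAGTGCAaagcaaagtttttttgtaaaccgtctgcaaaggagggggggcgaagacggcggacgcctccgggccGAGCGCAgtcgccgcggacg

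The Mt1 window held 3 such matches, with first bases at -23, 3 and 21, the start being base 1 and the base before it -1. The Mt2 window held 4, at -223, -128, -50 and 5, and the Slc30a1 window held 2, at -43 and 31. Among 32851 RefSeq promoter windows of this length, 7.11% held at least 2 matches, 1.97% at least 3 and 0.517% at least 4. The Slc30a4 window held 3 matches and 1 of the windows of Slc39a8 held 1, a count that 25.7% of all windows reached. None was found in the windows of Mtf1, Slc30a7 and Slc39a1, which says only that these letters were not there. An antioxidant response element, searched as TGACNNNGC on both strands, matched in the windows of Mt2, Slc30a1, Slc39a1 and Slc39a8, against 12.4% of all windows. The match of Mt2, at -79, overlapped the only match to an AP-1 site, searched as TGANTCA and present in 7.81% of all windows. A STAT site, searched as TTCNNNGAA, was found in no window of the members searched, which leave out Slc39a14, against 8.3% of all windows. Each window rests on a start given by RefSeq, which was not checked in these libraries. Bases outside the windows were not searched, so sites past the end of the Mt1 window, as of any other, are not counted here.

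Total counts per library lay between 46154875 and 81995629. CPM here are counts scaled to the library's total times its TMM factor, a scaling factor of edgeR that lay at 0.845 in exposed day 5 replicate 2 and between 0.935 and 1.05 in the other 15 libraries. All 13 macrophage markers were at 1 CPM or more in every group. They summed to 15173 to 21267 CPM in exposed day 5 libraries, against 8012 to 8890 CPM in uninfected day 5 libraries. At day 1 they summed to 11335 to 12486 CPM in exposed libraries, against 7401 to 7756 CPM in uninfected ones. By an edgeR adjusted p under 0.05, 8 of the 13 were higher and 2 lower in exposed cells at day 5, beside 57.0% of all genes called. At day 1, 5 were higher and 1 lower, beside 23.8% of all genes called. The 6 lymphocyte markers summed to at most 0.466 CPM in any library, with Cd3g at 0 in all of them. Among the 5 epithelial markers Cdh1 alone reached 1 CPM, and the list summed to at most 24.4 CPM in exposed and at least 69.7 CPM in uninfected day 5 libraries, with Epcam, Krt8 and Sftpc at 0 in exposed cells. Of the 5 fibroblast and endothelial markers 3 reached 1 CPM in exposed and 2 in uninfected day 5 cells, with sums of 15.9 to 20.1 CPM in exposed and 23.0 to 25.1 CPM in uninfected libraries. The 7 neutrophil markers, S100a8 foremost, summed to 414 to 889 CPM in exposed and 447 to 614 CPM in uninfected day 5 libraries, and to 762 to 1050.1 CPM in exposed and 300.1 to 391 CPM in uninfected day 1 libraries. Of these 7, 3 were higher and 3 lower in exposed cells at day 5, beside 57.0% of all genes called. At day 1, 2 were higher and 2 lower, beside 23.8% of all genes called. The 2 lower ones, Mpo and Ngp, each lost the call when some single day 1 libraries were left out (edgeR adjusted p between 0.0522 and 0.133). The part of these other markers in the results below was not tested. Exposed day 5 libraries were the most variable group, with a median SD per gene of 0.299 on the log2 CPM scale, against 0.148 in uninfected day 5 libraries. In bulk RNA, a smaller number of cells with a transcript and a smaller amount of it per cell cannot be told apart.

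Per kilobase of annotated exon, the metallothioneins stood far above the other members in every group. In uninfected day 1 cells Mt2 averaged 2041 CPM per kb and Mt1 1584 CPM per kb, followed by Slc39a1 at 37.5, Slc30a1 at 9.67, Mtf1 at 5.60, Slc39a14 at 3.68, Slc30a7 at 3.35 and Slc39a8 at 0.519 CPM per kb. The order was the same in exposed day 1 cells, while at day 5 Slc39a14 stood above Mtf1 in exposed cells at 5.06 against 3.87 CPM per kb. The lengths came from GENCODE M21 exons merged over all transcripts, 1246 bases for Mt1 and 588 bases for Mt2. Neither Mt1 and Mt2 nor neighbours as close as Slc39a14 and Slc30a7 can therefore be ranked. Without division by length Mt1 stood above Mt2 in every group, at 1973 against 1200 CPM in uninfected day 1 cells. Together Mt1 and Mt2 took 0.363% of counts in exposed day 5 cells, 0.417% in uninfected day 5 cells, 0.291% in exposed day 1 cells and 0.326% in uninfected day 1 cells.

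Slc30a4, an exporter best known from the mammary gland, had 3 counts in exposed day 5 replicate 1 and 1 count in uninfected day 5 replicate 4. It had 0 counts in every other library. At this depth 3 counts over a group of 4 libraries correspond to 0.0109 CPM in exposed day 1 cells and 0.0111 CPM in uninfected day 1 cells, which a count of 0 allows, counting error only. Slc30a4 did not pass edgeR's filter on low counts, and the other 8 members were tested.

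The first question was how exposed cells differed from uninfected cells at day 5. Of the 8 members tested, 4 rose in exposed cells (Slc30a1, Slc30a7, Slc39a1 and Slc39a14) and 2 fell (Mt1 and Mtf1). Across all genes, 28.6% were called higher and 28.4% lower at an adjusted p under 0.05, together 57.0%, so a large share of called genes was usual in this comparison. These adjusted p-values, and all others below unless an exact test is named, came from the quasi-likelihood test of edgeR, adjusted by the Benjamini-Hochberg method over all genes tested. The median log2 fold change was 0.16 over the 8 members and 0.02 over all 17190 genes tested. Libraries of the groups did not overlap for 3 of the members that rose and for both that fell, beside 46.6% of all genes tested.

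Mt1 (ENSMUSG00000031765.9) had 2242, 2102, 1861 and 2330 CPM in exposed day 5 replicates 1 to 4, against 2575, 2611, 2748 and 2412 CPM in uninfected day 5 replicates 1 to 4. Every exposed library lay below every uninfected one. The mean was 2134 ± 205 CPM over exposed libraries and 2587 ± 138 CPM over uninfected ones (SD, n = 4 each), and Mt1 fell by 17.5%, a log2 fold change of -0.28 ± 0.10 (SE; edgeR adjusted p = 0.0244). The call was lost when either exposed day 5 replicate 3 (-0.22, adjusted p = 0.0525) or uninfected day 5 replicate 3 (-0.25, adjusted p = 0.0685) was left out. It was also lost when exposed day 5 replicates 2 and 3, whose library names carry a different code series, were both left out (-0.18, adjusted p = 0.143), with no filter on low counts (adjusted p = 0.0677) and in a fit of the 8 day 5 libraries alone (adjusted p = 0.0881).

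Mt2 (ENSMUSG00000031762.8), the neighbour of Mt1 on chromosome 8, had 1584, 1753, 1545 and 1937 CPM in exposed day 5 replicates 1 to 4, against 1471, 1589, 1645 and 1512 CPM in uninfected day 5 replicates 1 to 4. The groups overlapped, with exposed replicates 2 and 4 above all uninfected libraries, though by plain library totals replicate 2 had 1481 CPM and lay below them. Its log2 fold change was 0.13 ± 0.10 (SE; edgeR adjusted p = 0.242), and its call did not change in any of the 23 alternatives. How reads shared by these close paralogs were assigned is not stated in the sources used here, so the split of counts between Mt1 and Mt2 carries that limit.

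Mtf1 (ENSMUSG00000028890.14), which encodes the transcription factor that senses zinc, had 36.7, 34.9, 32.5 and 33.9 CPM in exposed day 5 replicates 1 to 4, against 47.0, 48.5, 47.2 and 49.7 CPM in uninfected day 5 replicates 1 to 4. The groups were clear of each other, and the replicates of each were close. Mtf1 fell by 28.2% in exposed cells, a log2 fold change of -0.48 ± 0.06 (SE; edgeR adjusted p = 1.35e-06), and the call was kept in all 23 alternatives.

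**Figure D1:**
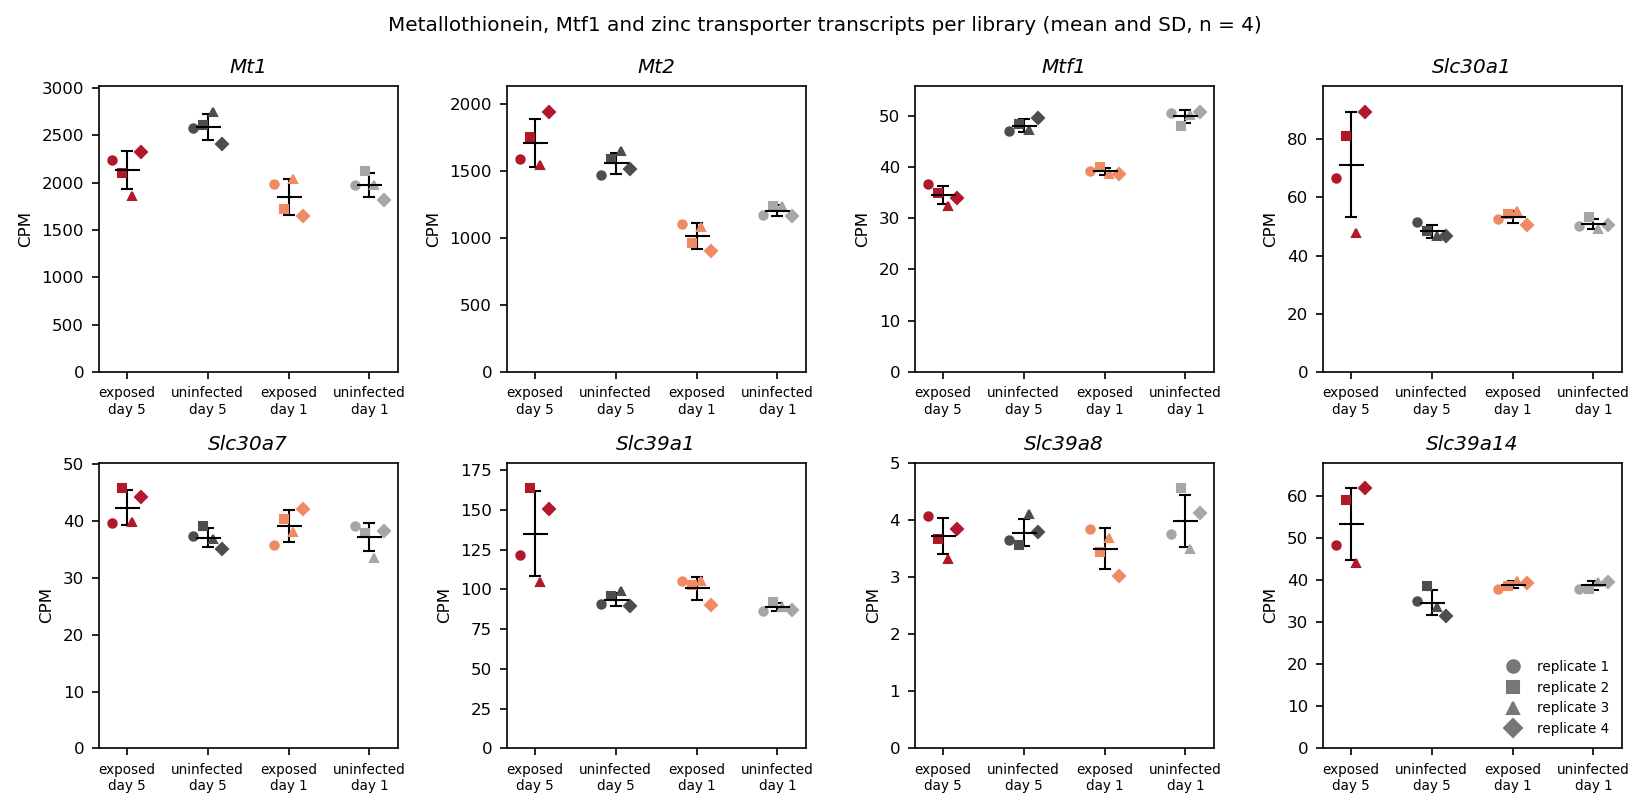
CPM of the 8 members tested in each library, by group, with a marker for each replicate and bars for the mean and SD of 4 libraries. Mtf1 averaged 34.5 CPM in exposed day 5 cells and 48.1 CPM in uninfected ones, with no overlap, while the exposed day 5 libraries of Slc30a1 spread between 47.8 and 89.4 CPM.

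Slc30a1 (ENSMUSG00000037434.8), which encodes the zinc exporter of the plasma membrane, had 66.8, 81.0, 47.8 and 89.4 CPM in exposed day 5 replicates 1 to 4, against 51.5, 48.4, 46.7 and 46.8 CPM in uninfected day 5 replicates 1 to 4. Exposed replicates 1, 2 and 4 were above all uninfected libraries, and exposed replicate 3 lay among them. The log2 fold change was 0.56 ± 0.13 (SE; edgeR adjusted p = 0.000811), and the call was kept in all 23 alternatives.

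Slc30a7 (ENSMUSG00000054414.5), which encodes an exporter that loads zinc into the Golgi apparatus, had 39.7, 45.7, 39.9 and 44.2 CPM in exposed day 5 replicates 1 to 4, against 37.4, 39.1, 36.8 and 35.1 CPM in uninfected day 5 replicates 1 to 4. The groups did not overlap, but the lowest exposed library was within 1 CPM of the highest uninfected one. By plain library totals they did overlap, with 39.2, 38.6, 41.0 and 41.3 CPM in exposed replicates 1 to 4, against 38.1, 40.1, 36.5 and 34.9 CPM in uninfected replicates 1 to 4. The log2 fold change was 0.19 ± 0.08 (SE; edgeR adjusted p = 0.0371). This call was kept in 13 of the 23 alternatives. The adjusted p was 0.106 without exposed day 5 replicate 2, 0.09 without exposed day 5 replicate 4, 0.0677 without uninfected day 5 replicate 1, 0.0777 without uninfected day 5 replicate 3 and 0.105 without uninfected day 5 replicate 4. Leaving out exposed day 1 replicate 3 gave 0.0608 and leaving out uninfected day 1 replicate 4 gave 0.0504, both libraries of the other day. It was 0.11 with no filter, 0.0843 in a fit of the 8 day 5 libraries alone and 0.0829 without exposed day 5 replicates 2 and 3.

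Slc39a1 (ENSMUSG00000052310.10), which encodes a widely expressed zinc importer, had 122, 163, 105 and 150.4 CPM in exposed day 5 replicates 1 to 4, against 90.5, 95.5, 98.8 and 89.5 CPM in uninfected day 5 replicates 1 to 4. All exposed libraries were above all uninfected ones, replicate 3 by the least. The log2 fold change was 0.53 ± 0.11 (SE; edgeR adjusted p = 0.000278), kept in all 23 alternatives.

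Slc39a14 (ENSMUSG00000022094.16), which encodes an importer of zinc, iron and manganese that is known in mouse liver as induced by interleukin 6, had 48.4, 59.1, 44.1 and 61.8 CPM in exposed day 5 replicates 1 to 4, against 35.1, 38.7, 33.6 and 31.4 CPM in uninfected day 5 replicates 1 to 4. The groups did not overlap. The log2 fold change, 0.62 ± 0.09 (SE; edgeR adjusted p = 1.26e-05), was the greatest among the 8 members at day 5, and the call was kept in all 23 alternatives.

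Slc39a8 (ENSMUSG00000053897.16), which encodes an importer of zinc and manganese that NF-kB signalling is known to induce in human cells, was low throughout. It had 4.06, 3.67, 3.32 and 3.83 CPM in exposed day 5 replicates 1 to 4, against 3.66, 3.55, 4.10 and 3.78 CPM in uninfected day 5 replicates 1 to 4. The groups overlapped, and the log2 fold change was -0.02 ± 0.12 (SE; edgeR adjusted p = 0.904).

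The members that rose at day 5 did so unevenly over the exposed replicates. Relative to the uninfected day 5 mean, Slc30a1 stood at 1.38, 1.68, 0.989 and 1.85 times in exposed replicates 1 to 4, Slc39a1 at 1.30, 1.75, 1.12 and 1.61 times and Slc39a14 at 1.39, 1.70, 1.27 and 1.78 times. Replicates 2 and 4 were thus the highest and replicate 3 the lowest for each of these 3 genes, an order that was the same by plain library totals. Slc30a7, the other member that rose, stood at 1.07, 1.23, 1.08 and 1.19 times in exposed replicates 1 to 4. Its replicate 1 was the lowest, and by plain library totals its replicate 2 was the lowest. Il6, an inflammatory cytokine gene, had 19.3, 121 and 32.4 CPM in exposed replicates 1 to 3 and 96.0 CPM in replicate 4, against 0.264 to 0.582 CPM in uninfected day 5 libraries, so that the same replicates 2 and 4 were the highest. Its part in these values was not tested. Mt1 and Mtf1, which fell, were below the uninfected mean in all 4 exposed replicates, at 0.719 to 0.901 times for Mt1 and 0.675 to 0.763 times for Mtf1.

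**Figure D2:**
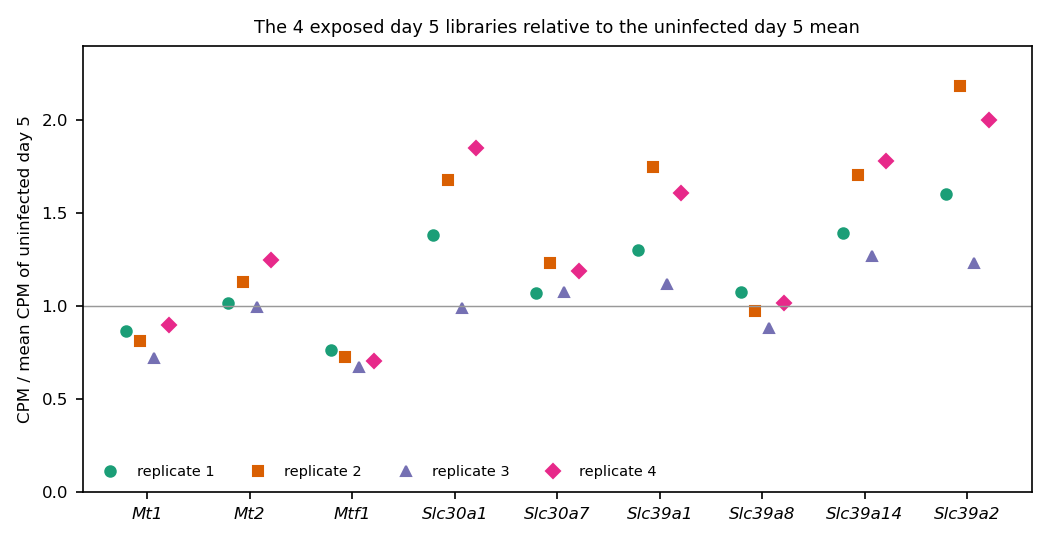
CPM of each exposed day 5 library divided by the mean of the 4 uninfected day 5 libraries, for the 8 members tested and Slc39a2, with a marker for each replicate and a line at 1. Replicates 2 and 4 stood highest for Slc30a1, Slc39a1, Slc39a14 and Slc39a2, as at 1.68 and 1.85 times for Slc30a1, and Mtf1 lay below 1 in all 4 libraries.

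In the second comparison, exposed cells were set against uninfected cells at day 1. Mtf1 fell in the fit of all 16 libraries, and the other 7 tested members were not called. None rose in that fit, at an unadjusted p under 0.05 either, or by DESeq2. Of all genes, 13.4% were called higher and 10.5% lower, together 23.8%. The median log2 fold change was -0.04 over the 8 members and 0.03 over all genes tested. Groups did not overlap for Mtf1 and Mt2, both lower in exposed cells, beside 39.3% of all genes tested. In a fit of the 8 day 1 libraries alone, Mt2 was also called lower and Slc39a1 higher, where 7021 of 15858 genes were called.

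Mtf1 had 39.2, 40.0, 38.6 and 38.7 CPM in exposed day 1 replicates 1 to 4, against 50.5, 48.0, 50.2 and 50.7 CPM in uninfected day 1 replicates 1 to 4. It fell by 21.5%, a log2 fold change of -0.35 ± 0.06 (SE; edgeR adjusted p = 0.000353), and the call was kept in all 23 alternatives. Each of the 8 exposed libraries thus had less Mtf1 than any uninfected library of its day.

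Mt2 had 1105, 959, 1078 and 898 CPM in exposed day 1 replicates 1 to 4, against 1167, 1234, 1236 and 1163 CPM in uninfected day 1 replicates 1 to 4. Every exposed library lay below every uninfected one, yet the test did not pass (log2 fold change -0.25 ± 0.10, SE; edgeR adjusted p = 0.0651). The value passed in 7 of the 23 alternatives, namely DESeq2 (-0.28, adjusted p = 0.0117), RLE size factors (adjusted p = 0.0457), the 1 CPM filter (adjusted p = 0.0482), a fit of the 8 day 1 libraries alone (-0.24, adjusted p = 0.0118), and, among libraries of the other day, without exposed day 5 replicate 3 (adjusted p = 0.0299), without replicate 4 (adjusted p = 0.0487) and without replicates 2 and 3 together (adjusted p = 0.0226).

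Mt1 had 1988, 1718, 2041 and 1652 CPM in exposed day 1 replicates 1 to 4, against 1975, 2125, 1973 and 1820 CPM in uninfected day 1 replicates 1 to 4. The groups overlapped, and its log2 fold change was -0.09 ± 0.10 (SE; edgeR adjusted p = 0.541).

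None of the 4 transporters that rose at day 5 was called at day 1 in the fit of all 16 libraries. Slc39a14 had 37.9, 38.7, 39.8 and 39.4 CPM in exposed day 1 replicates 1 to 4, against 37.9, 38.0, 39.7 and 39.7 CPM in uninfected day 1 replicates 1 to 4, with a log2 fold change of 0.01 ± 0.09 (SE; edgeR adjusted p = 0.973). Slc30a1 had 52.6, 54.2, 55.3 and 50.6 CPM in exposed day 1 replicates, against 50.1, 53.2, 49.2 and 50.4 CPM in uninfected day 1 replicates, with a log2 fold change of 0.07 ± 0.13 (SE; adjusted p = 0.738). Slc39a1 had 105, 103, 105 and 89.9 CPM in exposed day 1 replicates, against 86.5, 92.1, 88.8 and 87.1 CPM in uninfected day 1 replicates. For Slc39a1 the first 3 exposed replicates lay above all uninfected ones and replicate 4 among them (by plain library totals it lay above them, at 94.7 CPM against at most 92.7 CPM), and the log2 fold change of 0.18 ± 0.11 (SE) did not pass (adjusted p = 0.218). Slc30a7 (0.07 ± 0.08, adjusted p = 0.529) and Slc39a8 (-0.18 ± 0.12, adjusted p = 0.303) were not called either.

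Whether the effect of exposure differed between the days was tested as an interaction. Of the 8 members tested, 3 had a more positive effect at day 5 than at day 1 (Mt2, Slc30a1 and Slc39a14) and none a more negative one by edgeR, at an unadjusted p under 0.05 either, or by DESeq2, where 16.4% of all genes were called in the positive and 19.5% in the negative direction, together 35.9%. The median change was 0.25 over the 8 members and -0.04 over all genes tested, on the log2 scale. For Slc39a14 the effect changed by 0.61 ± 0.13 (SE; edgeR adjusted p = 0.00131), kept in all 22 alternatives.

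For Mt2 the change of the effect was 0.38 ± 0.14 (SE; edgeR adjusted p = 0.0332), and 12 of the 22 alternatives kept it. Leaving out any of 8 libraries ended the call, with adjusted p of 0.0731 and 0.0707 without exposed day 1 replicates 2 and 4, and 0.0755 without exposed day 5 replicate 4. It was 0.0517, 0.0608 and 0.0683 without uninfected day 1 replicates 1, 2 and 3, and 0.0722 and 0.0594 without uninfected day 5 replicates 1 and 4. For Slc30a1 the change was 0.49 ± 0.18 (SE; adjusted p = 0.0365), and 9 of the 22 alternatives kept it. Its call was lost without any of the 4 exposed day 1 replicates, any of the 4 uninfected day 1 replicates, uninfected day 5 replicates 2, 3 or 4, or exposed day 5 replicates 2 or 4, with adjusted p between 0.0517 and 0.0911.

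Mt1 had a change of -0.18 ± 0.14 (SE; edgeR adjusted p = 0.335), Mtf1 of -0.13 ± 0.08 (SE; adjusted p = 0.248), Slc30a7 of 0.12 ± 0.11 (SE; adjusted p = 0.413) and Slc39a8 of 0.16 ± 0.18 (SE; adjusted p = 0.499), none of them called. Slc39a1 had a change of 0.34 ± 0.15 (SE; adjusted p = 0.0807), which passed in 3 of the 22 alternatives. These were the 1 CPM filter (0.36, adjusted p = 0.0413), without exposed day 5 replicate 3 (0.45, adjusted p = 0.00434) and without replicates 2 and 3 together (0.36, adjusted p = 0.0142). Of the members that were lower at day 5, neither was shown to differ from its day 1 effect.

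**Figure D3:**
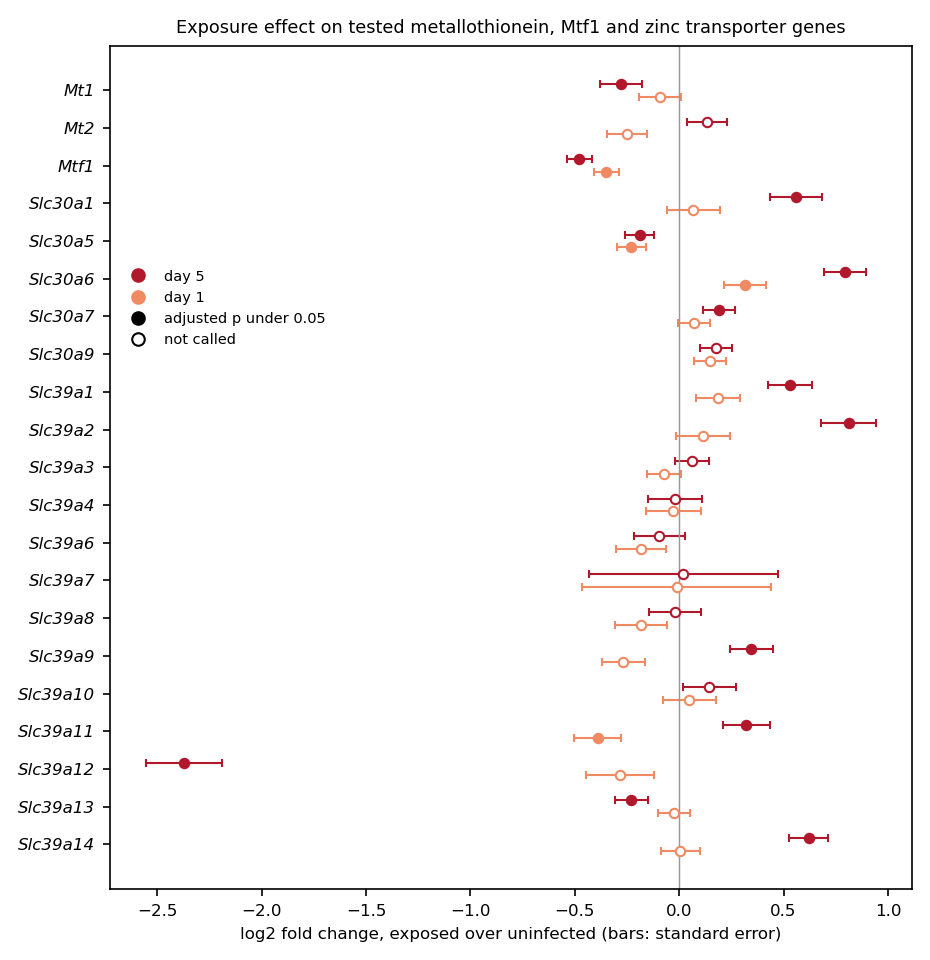
Log2 fold change of exposed over uninfected cells at day 5 and at day 1 for the members and the other Slc30 and Slc39 genes tested, with bars for the standard error and filled points where the adjusted p was under 0.05. Slc39a14 lay at 0.62 at day 5 and 0.01 at day 1, and Slc39a12 at -2.37 at day 5.

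Both metallothioneins rose between day 1 and day 5 in uninfected cells. In uninfected cells, day 5 over day 1, Mt1 had a log2 fold change of 0.39 ± 0.10 (SE; edgeR adjusted p = 0.0103) and Mt2 of 0.37 ± 0.10 (SE; adjusted p = 0.00991), with no overlap between days for either. They were the 2 of 8 tested members called, in a comparison where 10.8% of all genes were called higher and 8.91% lower, together 19.7%. Each exposure effect above was therefore set against uninfected cells of the same day.

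In exposed cells, day 5 over day 1, Mt2 rose by a log2 fold change of 0.76 ± 0.10 (SE; edgeR adjusted p = 2.54e-06), with a mean of 1705 ± 179 CPM at day 5 and 1010 ± 97.7 CPM at day 1 (SD, n = 4 each). Slc39a14 (0.45 ± 0.09, adjusted p = 0.000451), Slc39a1 (0.42 ± 0.11, adjusted p = 0.00246) and Slc30a1 (0.42 ± 0.13, adjusted p = 0.00835) rose too, and Mtf1 fell (-0.18 ± 0.06, adjusted p = 0.0161). These were 4 higher and 1 lower of 8, where 25.6% of all genes were called higher and 25.2% lower, together 50.8%. Mt1 had 0.21 ± 0.10 (adjusted p = 0.0975) and was not called, but passed with DESeq2 (adjusted p = 0.0397), with the 1 CPM filter (adjusted p = 0.0333), without exposed day 5 replicate 3 (0.27, adjusted p = 0.0206) and without replicates 2 and 3 together (0.31, adjusted p = 0.0153). The call of Mtf1 was lost without exposed day 5 replicates 2 and 3 (-0.15, adjusted p = 0.0754), with no filter (adjusted p = 0.196) and in a fit of the exposed libraries alone (adjusted p = 0.0891), which also lost Slc30a1 (adjusted p = 0.0514). This comparison shares its libraries with the exposure comparisons.

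The ratio of Mt1 to Mt2 counts within a library does not depend on how libraries are scaled. It was 1.42, 1.20, 1.20 and 1.20 in exposed day 5 replicates 1 to 4, against 1.75, 1.64, 1.67 and 1.60 in uninfected day 5 replicates 1 to 4. All exposed libraries lay below all uninfected ones, with replicate 1 apart from the other exposed libraries. At day 1 the order was the opposite, with 1.80, 1.79, 1.89 and 1.84 in exposed replicates 1 to 4, against 1.69, 1.72, 1.60 and 1.56 in uninfected replicates 1 to 4, again without overlap.

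The difference in the log2 ratio, exposed minus uninfected, was -0.41 at day 5 and 0.16 at day 1 (two-sided exact permutation test, p = 0.0286 for each, the smallest that 4 against 4 libraries can give, and adjusted p = 0.0381 over 4 comparisons). Between days, day 5 minus day 1, it was -0.55 in exposed cells (exact permutation test, adjusted p = 0.0381) and 0.02 in uninfected cells (exact permutation test, adjusted p = 0.657). The summed CPM of Mt1 and Mt2 was 3839 ± 352 CPM for exposed and 4141 ± 203 CPM for uninfected cells of day 5, and 2860 ± 289 CPM for exposed and 3173 ± 156 CPM for uninfected cells of day 1 (SD, n = 4 each).

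**Figure D4:**
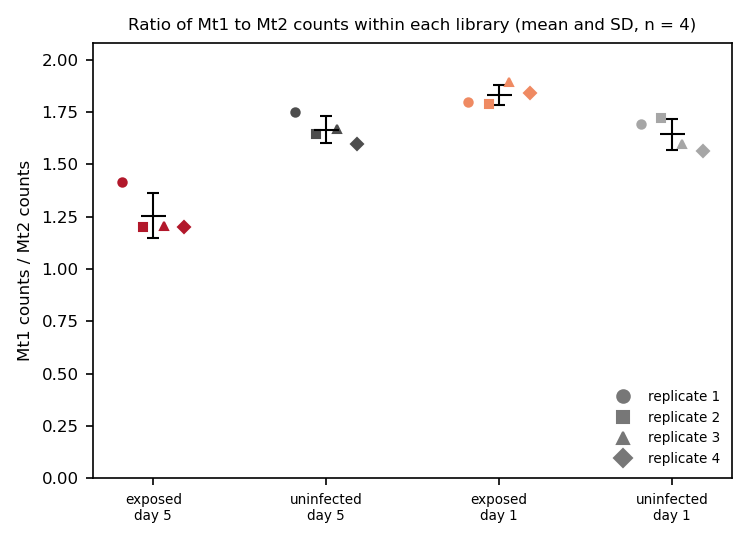
Ratio of Mt1 to Mt2 counts in each library by group, with a marker for each replicate and bars for the mean and SD of 4 libraries. The ratio averaged 1.26 in exposed and 1.67 in uninfected day 5 cells, and 1.83 in exposed and 1.64 in uninfected day 1 cells.

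The rest of the Slc30 and Slc39 families gives the setting of the transporters. Of 18 such genes, 13 were tested, and Slc30a8 and Slc30a10 had 0 counts in all libraries. At day 5, 4 rose in exposed cells (Slc30a6, Slc39a2, Slc39a9 and Slc39a11) and 3 fell (Slc30a5, Slc39a12 and Slc39a13), with a median log2 fold change of 0.06, beside the 57.0% of all genes called. At day 1, 1 rose (Slc30a6) and 2 fell (Slc30a5 and Slc39a11), with a median of -0.03, beside 23.8% of all genes called.

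Slc39a12, an importer best known from brain, had the strongest change of these genes. It had 2.21, 1.30, 1.58 and 1.01 CPM in exposed day 5 replicates 1 to 4, against 9.45, 8.69, 7.54 and 6.05 CPM in uninfected day 5 replicates 1 to 4, so that the highest exposed library was below the lowest uninfected one. The log2 fold change was -2.37 ± 0.18 at day 5 (SE; edgeR adjusted p = 1.89e-09) and -0.28 ± 0.16 at day 1 (SE; adjusted p = 0.223), and the effect differed between days by -2.09 ± 0.24 (SE; adjusted p = 3.26e-06).

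Slc39a2, a zinc importer that is abundant here, had 339, 462, 260.4 and 423 CPM in exposed day 5 replicates 1 to 4, against 226, 215, 207 and 197 CPM in uninfected day 5 replicates 1 to 4. Exposed replicates 2 and 4 were the highest and replicate 3 the lowest, as for Slc30a1, Slc39a1 and Slc39a14, and the groups did not overlap. The log2 fold change was 0.81 ± 0.13 (SE; edgeR adjusted p = 2.52e-05), and the effect differed from that at day 1 by 0.70 ± 0.18 (SE; adjusted p = 0.00583).

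Slc30a6, which encodes a transporter of the Golgi network that loads zinc into the secretory pathway with the product of Slc30a5, had 22.3, 29.6, 20.1 and 24.8 CPM in exposed day 5 replicates 1 to 4, against 14.3, 12.5, 13.9 and 15.2 CPM in uninfected day 5 replicates 1 to 4. The groups did not overlap (log2 fold change 0.79 ± 0.10, SE; edgeR adjusted p = 1.71e-06). At day 1 its log2 fold change was 0.31 ± 0.10 (SE; adjusted p = 0.0298), a call that was lost without exposed day 1 replicates 2, 3 or 4 or uninfected day 1 replicates 1, 3 or 4 (adjusted p between 0.0629 and 0.0855). Its partner Slc30a5 fell instead, by a log2 fold change of -0.19 ± 0.07 at day 5 (SE; adjusted p = 0.028) and -0.23 ± 0.07 at day 1 (SE; adjusted p = 0.0235). The day 5 call of Slc30a5 was lost without exposed day 5 replicates 1 or 2 or uninfected day 5 replicates 1 or 3 (adjusted p = 0.0529, 0.0659, 0.059 and 0.0965), and the day 1 call without exposed day 1 replicates 1 or 4 or uninfected day 1 replicate 2 (adjusted p = 0.0806, 0.0526 and 0.0818). The day 5 call was also lost with no filter (adjusted p = 0.144) and with the 1 CPM filter (adjusted p = 0.055). It was lost too in the day 5 libraries alone (adjusted p = 0.0995) and without exposed day 5 replicates 2 and 3 (0.0797). With no filter the day 1 call of Slc30a5 was lost as well (adjusted p = 0.0698). For Slc30a6 the day 1 call was also lost with DESeq2 (adjusted p = 0.0511), RLE size factors (0.0531) and no filter (0.0951).

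Slc39a9 and Slc39a11, which encode importers of intracellular membranes, had effects that were more positive at day 5 than at day 1. Slc39a11 had 41.3, 41.1, 41.7 and 33.5 CPM in exposed day 1 replicates 1 to 4, against 51.6, 51.7, 53.6 and 49.6 CPM in uninfected day 1 replicates 1 to 4. It was lower in all exposed libraries at day 1 (log2 fold change -0.39 ± 0.11, SE; edgeR adjusted p = 0.0164) and higher at day 5 (0.32 ± 0.11, SE; adjusted p = 0.0195), with overlap at day 5. The day 1 call was lost without exposed day 1 replicate 4 (-0.32, adjusted p = 0.0673), and the day 5 call without exposed day 5 replicate 2 (0.20, adjusted p = 0.0932), uninfected day 5 replicate 1 (adjusted p = 0.0557) or uninfected day 5 replicate 2 (adjusted p = 0.0698). A fit of the day 5 libraries alone also lost the day 5 call (adjusted p = 0.0623). The change between days was 0.71 ± 0.16 for Slc39a11 (SE; adjusted p = 0.00179) and 0.61 ± 0.15 for Slc39a9 (SE; adjusted p = 0.00305), and both were kept in all 22 alternatives. Slc39a9 was called at day 5 (0.35 ± 0.10, adjusted p = 0.0078), with overlap, and not at day 1 (-0.27 ± 0.10, adjusted p = 0.0674), where its groups did not overlap. The day 1 value passed in 6 of the 23 alternatives. These were DESeq2 (adjusted p = 0.0438), RLE size factors (0.0488) and the day 1 libraries alone (0.000751). The others left out exposed day 5 replicate 2 (adjusted p = 0.0359), replicate 3 (0.00881) or both (0.00432). Slc39a13 fell at day 5, with overlap, by a log2 fold change of -0.23 ± 0.08 (adjusted p = 0.0177), a call lost without exposed day 5 replicate 2 (adjusted p = 0.0554) or uninfected day 5 replicate 2 (adjusted p = 0.0673). It was lost too with no filter (adjusted p = 0.0749) and in the day 5 libraries alone (adjusted p = 0.0926).

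The remaining metallothionein genes were close to the limit of detection. Mt3 had 3, 3, 2 and 5 counts in exposed day 5 replicates 1 to 4, against 0 counts in all uninfected day 5 libraries, where 3 counts over the group correspond to 0.0104 CPM. Mt3 had 0 counts in every day 1 library. Mt4 had 5 counts over the exposed day 5 libraries and 2 over the exposed day 1 libraries, against 0 in uninfected cells of both days. Neither passed the filter on low counts, and neither was tested.

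Metallothioneins and several SLC39 and SLC11 proteins also handle copper, manganese or iron. Of 11 genes of copper and manganese handling, all tested, 7 rose and 4 fell in exposed cells at day 5, beside 57.0% of all genes called, with a median log2 fold change of 0.70, and 6 rose and 1 fell at day 1, beside 23.8% of all genes called, with a median of 0.42, where the medians over all genes tested were 0.02 at day 5 and 0.03 at day 1. Sod2, the manganese superoxide dismutase of mitochondria, averaged 594 ± 140.2 CPM in exposed day 5 cells and 114 ± 5.62 CPM in uninfected ones (SD, n = 4 each), a log2 fold change of 2.39 ± 0.13 (SE; edgeR adjusted p = 2.16e-11). Slc11a2, a divalent metal importer, had a log2 fold change of 2.13 ± 0.14 (SE; adjusted p = 1.5e-10), the endosomal copper transporter gene Slc31a2 of 1.42 ± 0.08 (SE; adjusted p = 4.84e-11) and Slc11a1, which exports divalent metals from phagosomes, of 1.29 ± 0.12 (SE; adjusted p = 2.27e-08). The 4 that fell at day 5 were Atp7a (-0.96), Ccs (-0.87), Atp7b (-0.64) and Sod1 (-0.44). Their edgeR adjusted p was 2.72e-07, 3.61e-08, 4.49e-06 and 0.000389, in that order. Atp7a was the 1 that fell at day 1 (-0.72, adjusted p = 6.31e-05). At day 1 Sod2 (0.76 ± 0.13, adjusted p = 0.000271) and Slc31a2 (0.88 ± 0.08, adjusted p = 2.8e-07) rose, Slc11a2 rose too (0.42 ± 0.13, adjusted p = 0.0243), and Slc11a1 was not called (0.11 ± 0.12, adjusted p = 0.55). The day 1 call of Slc11a2 was lost without exposed day 1 replicate 3 (adjusted p = 0.0552) or 4 (adjusted p = 0.0774) and without uninfected day 1 replicate 1, 3 or 4 (adjusted p = 0.0585, 0.0557 and 0.064).

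Calprotectin, a protein pair that binds zinc and manganese, is encoded by S100a8 and S100a9. S100a8 averaged 872 ± 136 CPM in exposed day 1 cells and 338 ± 36.7 CPM in uninfected ones (SD, n = 4 each; log2 fold change 1.37 ± 0.19, SE; edgeR adjusted p = 7.26e-05), and the 0.35 ± 0.19 of day 5 was not called (SE; adjusted p = 0.131) but passed without exposed day 5 replicate 2 (0.50, adjusted p = 0.017). S100a9, at 3.94 ± 1.60 CPM in exposed day 5 cells and 7.28 ± 0.566 CPM in uninfected ones (SD, n = 4 each), fell at day 5 (-0.89 ± 0.19, SE; adjusted p = 0.000429) and was not called at day 1 (-0.30 ± 0.18, SE; adjusted p = 0.243). The difference between the genes was not tested.

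Genes of 3 related responses are given by their counts, beside the 57.0% of all genes called at day 5 and 23.8% at day 1. Of 7 glucocorticoid-responsive genes, 2 rose and 4 fell at day 5 (median -0.27), with Sgk1 at 1.18 ± 0.09 and Fkbp5 at -1.17 ± 0.12 (log2 fold change ± SE; edgeR adjusted p = 1.74e-09 for Sgk1 and 9.81e-08 for Fkbp5). Of 7 genes of interleukin 6 and STAT3 signalling, 3 rose and 2 fell at day 5 (median 0.14), with Il6 at 7.36 ± 0.56 (SE; adjusted p = 9.45e-09) and the receptor gene Il6ra at -2.63 ± 0.13 (SE; adjusted p = 3.08e-12). Of 5 genes of heat shock and metal stress, 3 rose and 1 fell at day 5 (median 0.64), with the haem oxygenase gene Hmox1 at 829 ± 344 CPM in exposed day 5 cells and 253 ± 2.41 CPM in uninfected ones (SD, n = 4 each; log2 fold change 1.71 ± 0.20, SE; adjusted p = 1.16e-06). At day 1 the counts were 1 higher and 2 lower for the glucocorticoid list, 4 higher and 2 lower for the interleukin 6 and STAT3 list, and 0 higher and 2 lower for the heat shock list. Of the genes lower at day 1, Zbtb16, Hspa1a and Hsph1 each lost the call when some single day 1 libraries were left out (edgeR adjusted p between 0.0543 and 0.128). The day 5 call of Klf9, which fell, was kept in 13 of the 23 alternatives, and that of Hspa1a, which rose, in 22.

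The genes most like each member were taken by Pearson's r of log2 CPM over the 16 libraries, which share groups and day, and are given as a description. They were Aldoa (r = 0.90) and Pkm for Mt1, Ppme1 (r = 0.95), Trf and Fxyd5 for Mt2, and Itsn1 (r = 0.97), Irs1 and Nectin1 for Mtf1. Among exporters they were Tlk2 (r = 0.98), Rab22a and Mex3c for Slc30a1 and Lats1 (r = 0.90), Rasa2 and Wdr37 for Slc30a7. Among importers they were Atf4 (r = 0.98), Coasy and Surf4 for Slc39a1, Lrch1 (r = 0.98), Cnot4 and Pfkfb3 for Slc39a14, and Micu2 (r = 0.78), Tmem106c and Tmem135 for Slc39a8. Among the members themselves Mt1 and Mt2 had r = 0.73, Slc30a1 and Slc39a1 r = 0.92, and Mtf1 and Slc39a1 r = -0.76.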

How the data were processed

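Polyadenylated RNA of 16 libraries was measured by RNA-seq. The deposited files hold raw read counts per gene (STAR on GRCm39, per the submitters' processing notes, with the reverse-strand column per the file names), and the versions and the annotation release are not given in the sources used here. Symbols came from GENCODE M21 for 52083 of 55359 genes, matched on the Ensembl identifier. The other genes held 0.449% of counts.

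Groups followed the labels. Genes passing filterByExpr (17190) were scaled by TMM and fitted in 1 quasi-likelihood model over all 16 libraries with a mean per group (edgeR 4.0.16, R 4.3.3). P-values are two-sided with Benjamini-Hochberg adjustment over all 17190 genes, the threshold for a call was 0.05, and the common biological coefficient of variation was 0.149. The scripts were tested on simulated data. CPM used library totals times TMM factors, log2 CPM a prior count of 2, and shares and ratios of counts no scaling. CPM by plain totals were added after the data were seen. Totals of 46154875 to 81995629 counts set the precision, and floors of 3 counts cover counting error only.

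The members and lists were chosen with earlier results of these data known. Named were all members, up to 4 called genes of each other list with the smallest p in either exposure comparison, and the 3 genes most correlated with each member among those with at least 5 CPM on average, of which 1 is not reported here. Other genes were named to give the members of a count of called transporters, the copper and manganese genes that fell, the markers and the remaining metallothioneins.

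Alternatives were DESeq2 1.42.0, its size factors (RLE), no filter beyond 1 read, at least 1 CPM in 4 libraries, only the libraries compared (not for the interaction), a replicate block, each of the 16 libraries left out, and exposed day 5 replicates 2 and 3 left out together.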

Additional observations from a re-analysis of the deposited data

Results flagged for a closer look

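The effect of exposure differed between the days, by the interaction test of edgeR with Benjamini-Hochberg adjustment, for Mt2 (0.38, adjusted p = 0.0332), Slc30a1 (0.49, adjusted p = 0.0365) and Slc39a14 (0.61, adjusted p = 0.00131) among the members. It also differed for Slc30a6 (0.48, adjusted p = 0.0133), Slc39a2 (0.70, adjusted p = 0.00583), Slc39a9 (0.61, adjusted p = 0.00305), Slc39a11 (0.71, adjusted p = 0.00179) and Slc39a12 (-2.09, adjusted p = 3.26e-06), each as the log2 effect at day 5 minus that at day 1. These were 3 of the 8 members tested, and 4 more positive and 1 more negative of the 13 other transporters tested, beside 35.9% of all genes called. The calls of Mt2 and Slc30a1 were kept in 12 and 9 of the 22 alternatives. For the log2 ratio of Mt1 to Mt2 counts, every exposed library lay below the uninfected mean at day 5 and above it at day 1, the effect at day 5 minus that at day 1 was -0.57, and this difference was not tested.

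Of 88 sets of 4 replicate values checked, 5 held a library apart from the other 3 by Dixon's criterion, and chance gives about 1 in 20. In exposed day 5 replicate 1 the ratio of Mt1 to Mt2 was 1.42. In exposed day 1 replicate 4, the library with the lowest total count, Slc39a2 was at 230.4 CPM and Slc39a11 at 33.5 CPM, both low. Slc39a13 was low in exposed day 1 replicate 3 at 30.1 CPM, and Slc39a7 in uninfected day 1 replicate 2 at 0.186 CPM. Slc39a7 averaged 1.46 to 1.60 CPM in every group, and its exposure effects had an SE of 0.45 at both days. Its lack of a call therefore says little.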

How the results depend on the processing

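Over the alternatives, 854 of 912 log2 fold changes of members kept their side of the threshold, 42 lost a call and 16 gained one. No called value changed sign, while 16 values near 0 that were not called did, for Slc39a8 at day 5 (-0.07 to 0.07), Slc39a14 at day 1 (-0.03 to 0.02) and Slc30a7 in uninfected cells between days (-0.05 to 0.02). The count of members lower at day 5 was 1 in place of 2 with no filter, with only the libraries compared and without exposed day 5 replicates 2 and 3, and at day 1 it was 2 in place of 1 with DESeq2, RLE, the 1 CPM filter, only the libraries compared and without those 2 libraries. Members higher at day 1 numbered 1 (Slc39a1) in place of 0 in the last 2 of these settings, and members lower in exposed cells between days 0 in place of 1 with no filter and in the same 2. Called genes numbered 7021 in place of 4097 at day 1 and 6424 in place of 3384 between days in uninfected cells with only the libraries compared, and 5313 in uninfected cells without the 2 libraries, and the cause was not tested. Leaving out 1 library each gave 3 to 4 members higher and 1 to 2 lower at day 5, 1 to 2 lower at day 1, 1 to 4 higher in the interaction and 4 to 5 higher in exposed cells between days. Called genes then numbered 9144 to 10064 at day 5, 2926 to 5360 at day 1, 5399 to 7370 in the interaction, 7948 to 9115 in exposed cells between days and 2108 to 4657 in uninfected cells, lowest without uninfected day 5 replicate 4. The log2 ratio of Mt1 to Mt2 lay between -0.47 and -0.39 at day 5, 0.13 and 0.18 at day 1, and -0.61 and -0.53 in exposed cells between days. Its call was lost at day 5 without uninfected day 5 replicate 1 or 3 (exact adjusted p = 0.0762), at day 1 without exposed day 1 replicate 3 or 4 (exact adjusted p = 0.0762) and between days without exposed day 1 replicate 3 or 4 (exact adjusted p = 0.0571). By medians it was -0.46, 0.15 and -0.60 (exact adjusted p = 0.0762), and without the 2 libraries -0.35 at day 5 and -0.49 between days (exact adjusted p = 0.0889, where 2 against 4 libraries cannot go below an unadjusted 0.0667). The labels do not say whether replicate numbers pair the samples, and the main fit did not pair them. Of 24 same-numbered pairs, 3 correlated above 0.1 (range -0.151 to 0.148). Pairs of different numbers reached -0.347 and 0.302, so these correlations do not settle the pairing. With the replicate block, the change for Mt2 lost its call (adjusted p = 0.0561), and the ratio kept -0.41, 0.16 and -0.55 with an exact adjusted p of 0.167, since 4 pairs cannot go below 0.125.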
